A study of Homo sapiens with 6 samples.

Results

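The miRNAs of the miR-99/100 and miR-125 families are made from 3 human loci in which a miR-99/100 hairpin, a let-7 hairpin and a miR-125 hairpin lie on the same strand. Of the 9 mature miRNAs chosen by name, 7 were listed in the deposited tables and 2 were not, among 463 distinct mature sequences in all. The listed members are miR-100-5p, miR-99b-5p, miR-99b-3p, miR-125a-5p, miR-125a-3p, miR-125b-5p and miR-125b-1-3p. The unlisted ones are miR-99a-5p and miR-125b-2-3p. The libraries came from LX-2, an immortalized human hepatic stellate cell line, which stood in the lower well of a Transwell plate and had been treated with TGF-β1 at 10 ng/mL, a cytokine that turns stellate cells into matrix-producing myofibroblasts. For co-culture (3 libraries), hUC-MSCs, mesenchymal stem cells from human umbilical cord, grew above the membrane for 48 h. In the single culture group (3 libraries) the LX-2 cells received the same TGF-β1 and no hUC-MSCs. The labels give the TGF-β1 treatment as 24 h and the study's methods give a longer time. All libraries are 1 cell line, and although the study says that experiments were repeated, neither text states that the libraries of a group were separate cultures, so p-values measure only the spread between these libraries.

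A miRNA is cut from a hairpin precursor as a 5p and a 3p arm, and pairs with target mRNAs mainly through its seed, bases 2 to 8 from the 5′ end. Members of 1 seed family can therefore share targets even when their genes lie on different chromosomes. The let-7 and miR-125 families are known from Caenorhabditis elegans, where let-7 and lin-4, the miR-125 relative, time the larval stages. In mammalian cells, miR-99/100 members are known repressors of the growth kinase mTOR, miR-125b is a known repressor of p53, and miR-125 and let-7 both target LIN28, the protein that blocks let-7 maturation.

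The mature sequences below, from RefSeq on GRCh38.p14, show which listed and unlisted members share a seed, since the seed sets which tags were added into a family. The seed is in capitals. All 7 listed members had the RefSeq sequence in the tables.
miR-100-5p: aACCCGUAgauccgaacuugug
miR-99a-5p: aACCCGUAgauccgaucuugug
miR-99b-5p: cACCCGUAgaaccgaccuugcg
miR-125a-5p: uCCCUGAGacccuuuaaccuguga
miR-125b-5p: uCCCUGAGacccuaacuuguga
miR-99b-3p: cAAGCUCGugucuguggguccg
miR-125a-3p: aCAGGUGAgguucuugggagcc
miR-125b-1-3p: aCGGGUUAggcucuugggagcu
miR-125b-2-3p: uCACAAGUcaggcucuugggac

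The seed ACCCGUA was held by 2 listed sequences, miR-100-5p and miR-99b-5p, and the seed CCCUGAG by 2, miR-125a-5p and miR-125b-5p. Counting from 1 at the 5′ end, miR-100-5p becomes the unlisted miR-99a-5p by 1 substitution, A16U, outside the seed. It becomes miR-99b-5p by 4 substitutions, A1C, U11A, A16C and U21C. The 5p arms of miR-125a and miR-125b are identical over their first 13 bases. The 3 listed 3p arms have seeds that no other listed sequence holds. With the mismatches allowed in counting not given in the sources used here, any split of tags between the 1-base neighbours miR-100-5p and miR-99a-5p is uncertain.

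On GRCh38, MIR100 (chromosome 11, 122152229 to 122152308), MIRLET7A2 and MIR125B1 (122099757 to 122099844) lie on the minus strand in introns of the noncoding host gene MIR100HG, over 52552 bp. MIR99B (chromosome 19, 51692612 to 51692681), MIRLET7E and MIR125A (51693254 to 51693339) lie on the plus strand within 728 bp, in an intron of SPACA6 and across exons of the opposite-strand SPACA6P-AS. MIR99A (chromosome 21, 16539089 to 16539169), MIRLET7C and MIR125B2 (16590237 to 16590325) lie on the plus strand in introns of MIR99AHG, over 51237 bp. The mature miR-125b-5p is the same sequence from MIR125B1 and MIR125B2, so its tags do not tell the chromosome 11 locus from the chromosome 21 locus. The 3p arms do, because miR-125b-1-3p and miR-125b-2-3p differ.

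The 3 single culture libraries held 209043, 43956 and 47528 tags in all, and the co-culture libraries 325037, 604418 and 421964. Listed sequences contained in the hairpin of MIR21, the gene of miR-21, are called MIR21 sequences here. Among them miR-21-5p had 14963, 2192 and 2145 tags in single culture against 22585, 41110 and 29590 in co-culture, a minor part of their tags. Together the MIR21 sequences took 37.1% to 56.4% of the tags in single culture against 75.1% to 81.2% in co-culture. Levels are therefore given as CPM, tag counts relative to a library size scaled by TMM, a method that takes the typical miRNA as unchanged between libraries. On that scale 2 tags, the smallest count listed, equal 6.60 CPM in single culture library 1, 31.0 and 29.7 CPM in libraries 2 and 3, and 5.34 to 7.77 CPM in co-culture. Single culture library 1 correlated with the co-culture libraries (mean r = 0.97) more than with its own group (mean r = 0.90), a description over miRNAs of these libraries. The numbered columns of the tables were assigned to groups and not to single samples, so a library number names a column. As a check of the cell type, miR-143-3p, a mesenchymal miRNA, had 156 to 310 tags a library, whereas miR-145-5p and miR-199a-3p had at most 6 and 4 tags and miR-214-3p was unlisted. Markers of hepatocytes (miR-122-5p), blood cells (miR-142-3p, miR-223-3p) and epithelium (miR-200c-3p, miR-141-3p) were unlisted, and the endothelial miR-126-3p had 8 to 68 tags.

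miR-100-5p carried most of the tags of these families. Its tags numbered 23295, 3884 and 3828 in single culture against 22888, 37067 and 23439 in co-culture, and it ranked between 2 and 3 of all sequences in every library. Its seed partner miR-99b-5p followed with 985, 172 and 195 tags against 831, 1497 and 932, at ranks 17 to 24. In every library miR-100-5p made up 95.2% to 96.5% of the tags that carry the miR-99/100 seed. By mean CPM over all 6 libraries, miR-100-5p (77545 CPM) stood 24.0-fold above miR-99b-5p (3226 CPM). Then came miR-125b-1-3p (602 CPM), miR-125b-5p (379 CPM), miR-99b-3p (149 CPM), miR-125a-5p (64.6 CPM) and miR-125a-3p (5.06 CPM, with blanks as 0). Each of the 6 neighbouring pairs in this order had the same order in 6 of 6 libraries. The closest pair was miR-125b-1-3p and miR-125b-5p, with 121 and 119 tags in single culture library 1, where counting error alone covers the gap. Ligation of adapters favours some small RNAs over others, so an order among sequences is an order of tags.

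No tag was listed for miR-99a-5p or miR-125b-2-3p, the members made only from the chromosome 21 locus. Since a blank can stand for 0 or 1 tag, at most 6 tags in all can have gone unlisted for each, if every tag was counted under its own name. The 1-base neighbour miR-100-5p had 114401 tags over the 6 libraries. Tags of miR-99a-5p could stand among these if a mismatch was allowed, so a blank does not show that miR-99a-5p was absent. The opposite arms miR-99a-3p and let-7c-3p of that locus were unlisted too. let-7c-5p, the let-7 of the locus, was listed in every library with 104 to 189 tags. It differs from let-7a-5p by 1 substitution, A19G, so its tags are uncertain against those of let-7a-5p.

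**Figure D1:**
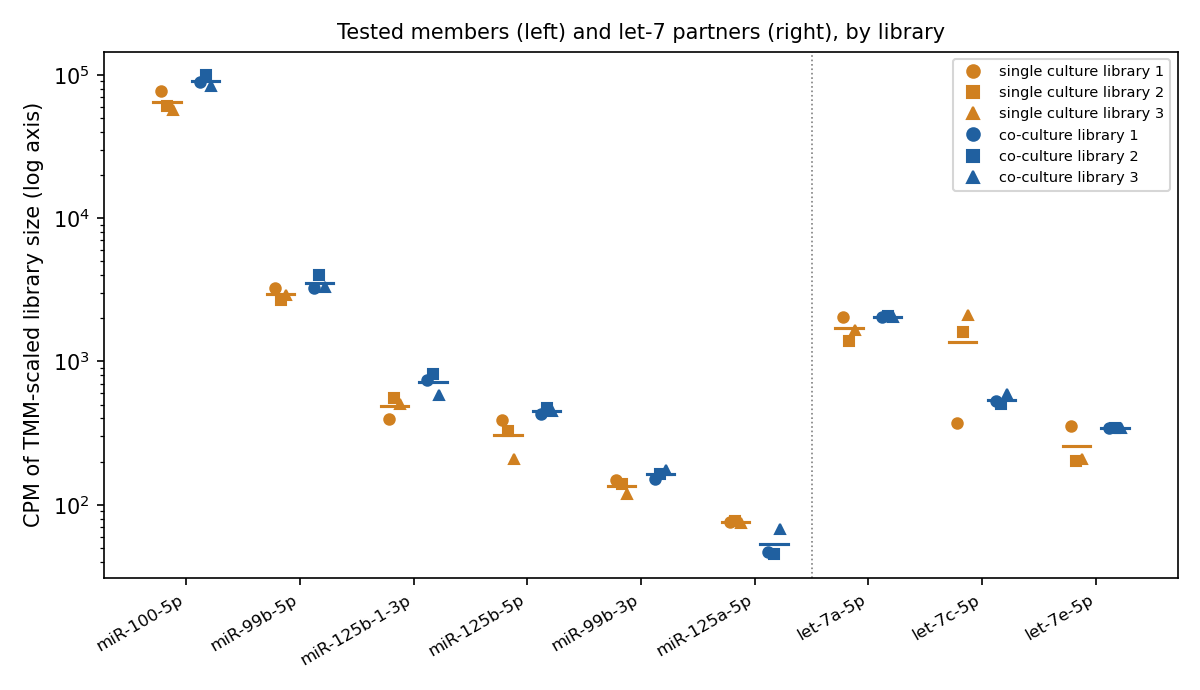
Levels of the 6 tested members and of 3 let-7 partners in each library, in CPM (TMM scaling) on a log axis. Points are libraries, bars are group means, and miR-100-5p lies 24.0-fold above miR-99b-5p over the 6 libraries while let-7c-5p is spread from 370 to 2094 CPM within single culture.

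The comparison of co-culture with single culture asked how these miRNAs stood in activated LX-2 cells that shared medium with hUC-MSCs. No member passed the adjusted threshold of 0.05 in either direction by edgeR's quasi-likelihood test with Benjamini-Hochberg adjustment over 182 sequences, of which 8 passed (4.40%), 4 higher (2.20%) and 4 lower (2.20%) in co-culture. At an unadjusted p of 0.05, 2 of the 6 tested members passed, miR-125b-1-3p and miR-100-5p, beside 25.3% of all tested. DESeq2 called 0 members at the adjusted threshold, beside 22 of the 150 sequences it gave an adjusted p, and 2 members at the unadjusted one. miR-125a-3p had too few tags for the minimum of 10 counts in 3 libraries, and the unlisted members had none. Fold changes were positive for 5 of the 6 and negative for miR-125a-5p, with a median of 0.36 on the log2 scale beside -0.04 over all tested. Group values did not overlap for 5 of the 6 (36.3% of all tested), with co-culture higher for 4 (20.3%) and lower for 1 (15.9%). These directions rest on scaling that takes the typical miRNA as unchanged. RLE scaling, DESeq2 and TMM without the MIR21 sequences share that assumption. In each the same 5 were positive and miR-125a-5p negative, with a member median of 0.38. On the authors' normalized values with limma the member median was 0.02 with either pseudocount, and miR-99b-5p and miR-99b-3p were negative too. By library size alone the median of all tested was -1.11 and that of the members was -0.71. There all 6 fold changes were negative, 5 of them (all but miR-125b-1-3p) past the adjusted threshold beside 139 of 182 sequences called lower. Relative to the median of all tested, miR-125a-5p stood lower and the other 5 stood higher. A change of scaling shifts all sequences by nearly the same amount, so this position is almost fixed. Its recurrence under TMM and under library size alone is no separate check.

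**Figure D2:**
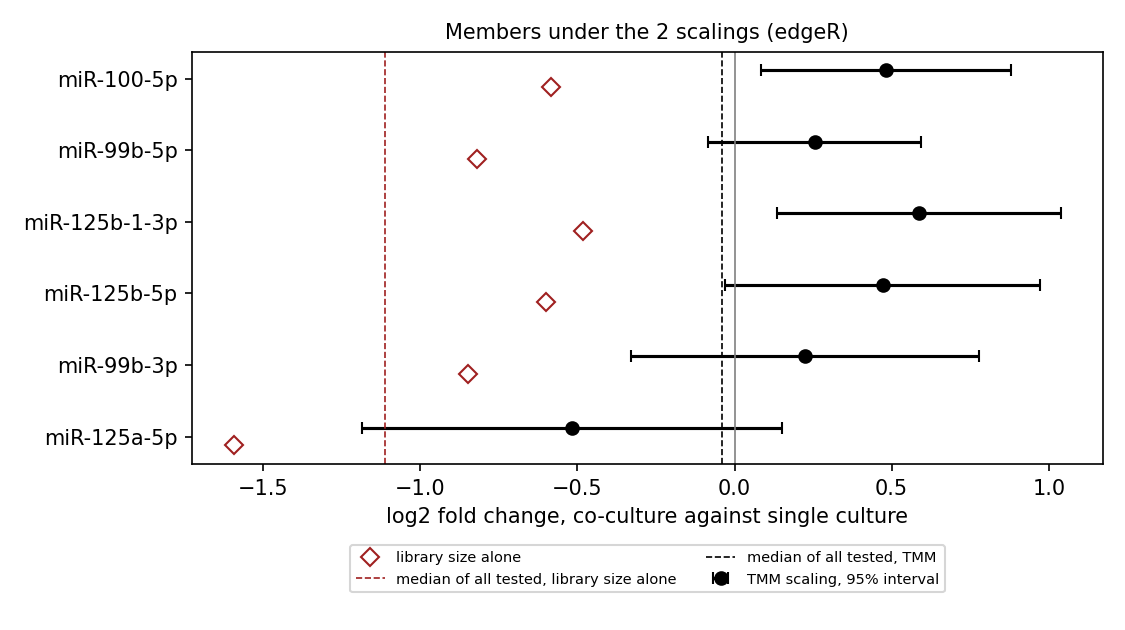
Log2 fold changes of the 6 tested members, co-culture against single culture. Circles with bars are the edgeR values and 95% intervals under TMM scaling, diamonds are the values by library size alone, and dashed lines are the medians over all 182 tested sequences (-0.04 and -1.11); 5 members lie to the right of each median and miR-125a-5p to its left.

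miR-100-5p, a known repressor of mTOR, stood at 76893, 60298 and 56859 CPM in single culture against 88910, 98968 and 83339 CPM in co-culture. All 3 co-culture libraries lay above all 3 single culture libraries, the nearest being single culture library 1. The group means were 64684 ± 10713 and 90405 ± 7921 CPM (SD, n = 3 each). The log2 fold change was 0.48 (SE 0.17, 95% interval 0.08 to 0.88, edgeR adjusted p = 0.123). Without single culture library 1 it was 0.60 with an edgeR adjusted p of 0.0124, in a fit that called 43 of 172 sequences, and over all alternatives the adjusted p ran from 0.0124 to 0.930.

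miR-99b-5p, which has the same seed but comes from chromosome 19, stood at 3251, 2670 and 2896 CPM in single culture against 3228, 3997 and 3314 CPM in co-culture. The groups overlapped, since single culture library 1 lay above co-culture library 1. The log2 fold change was 0.25 (95% interval -0.08 to 0.59, edgeR adjusted p = 0.303), and 0.14 without co-culture library 2. The opposite arm of its hairpin, miR-99b-3p, had 45, 9 and 8 tags in single culture against 39, 61 and 49 in co-culture. It stood at 149, 140 and 119 CPM against 151, 163 and 174 CPM, with co-culture just above in every library. The log2 fold change was 0.22 (95% interval -0.33 to 0.78, edgeR adjusted p = 0.586).

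miR-125b-5p, a known repressor of p53, had 119, 21 and 14 tags in single culture against 110, 176 and 127 in co-culture. These were 393, 326 and 208 CPM against 427, 470 and 452 CPM. Co-culture lay above single culture in every library, and single culture library 3, the lowest, rests on 14 tags. Exact Poisson intervals of 95% ran from 325 to 470 CPM in single culture library 1, from 202 to 498 CPM in library 2 and from 114 to 349 CPM in library 3. Those of libraries 1 and 2 reached the co-culture values, and that of library 3 lay below them. The log2 fold change was 0.47 (SE 0.21, 95% interval -0.03 to 0.97, edgeR adjusted p = 0.212). Without single culture library 1 it was 0.74 with an edgeR adjusted p of 0.0349, in the fit that called 43 of 172 sequences. Without single culture library 3 it was 0.29 with an edgeR adjusted p of 0.351, and over all alternatives the adjusted p ran from 0.0349 to 0.852.

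miR-125b-1-3p, the 3p arm that only MIR125B1 on chromosome 11 encodes, had 121, 36 and 34 tags in single culture against 192, 305 and 165 in co-culture. These were 399, 559 and 505 CPM against 746, 814 and 587 CPM, and the groups did not overlap. The log2 fold change was 0.59 (SE 0.19, 95% interval 0.14 to 1.04, edgeR adjusted p = 0.104), the highest of the 6 tested members. With no minimum count, which adjusts over 463 sequences and called 37 of them, it was 0.64 with an edgeR adjusted p of 0.0429. It was 0.84 when single culture libraries 2 and 3 were both left out, an alternative chosen after seeing the data. That leaves 1 single culture library and takes the spread from co-culture alone, so it is given as a value. Over the alternatives with at least 2 libraries a group its adjusted p ran from 0.0429 to 0.875.

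miR-125a-5p, the chromosome 19 member with the miR-125 seed, had 23, 5 and 5 tags in single culture against 12, 17 and 19 in co-culture. These were 75.9, 77.6 and 74.3 CPM against 46.6, 45.4 and 67.6 CPM, so that all 3 co-culture libraries lay below. The SD of 1.68 CPM in single culture is far narrower than counting error, since 5 tags have an exact Poisson interval of 25.2 to 181 CPM in library 2 and 24.1 to 173 CPM in library 3. The log2 fold change was -0.52 (SE 0.28, 95% interval -1.19 to 0.15, edgeR adjusted p = 0.296). By library size alone it was -1.59 with an edgeR adjusted p of 0.00315, and over all alternatives the adjusted p ran from 0.00315 to 0.640. Its opposite arm miR-125a-3p was listed with 2 tags in single culture library 1, was blank in libraries 2 and 3, and had 2, 2 and 3 tags in co-culture, so no difference was detectable at this depth.

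Ratios of products counted in the same library do not depend on the scaling between libraries, and 8 such ratios of tags plus 0.5 were compared between groups by an exact two-sided permutation test. With 3 libraries against 3 the smallest p it can give is 0.1, so no ratio could pass 0.05. Beside the 8, the 3 ratios planned with miR-99a-5p had no value.

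The balance of arms overlapped between groups for the miR-99b and miR-125b hairpins, and did not overlap for that of miR-125a, which rests on very few tags. For MIR99B, the 5p arm was 21.7, 18.2 and 23 times the 3p arm in single culture against 21.1, 24.3 and 18.8 times in co-culture, a difference of 0.03 on the log2 scale (exact permutation p = 0.8, adjusted 1.0 over 8 ratios). The miR-99b-3p share of both arms was 3.92% to 4.99% over the 6 libraries. For the miR-125b hairpin it was the 3p arm, usually the discarded passenger, that had more tags. miR-125b-1-3p took 50.4%, 63.2% and 70.8% of the tags of both arms in single culture against 63.6%, 63.4% and 56.5% in co-culture. The 95% Clopper-Pearson interval lay above 50% in 4 of the 6 libraries and reached below it in single culture libraries 1 and 2. Since miR-125b-5p can also come from MIR125B2, the share of tags within MIR125B1 itself would be at least this high. Ligation of adapters can favour 1 arm over the other, so a share of tags need not be the share of the arms in the cells. The 5p to 3p ratio differed by 0.02 on the log2 scale between groups (exact permutation p = 1.0), and single culture libraries 1 (0.984) and 3 (0.420) lay on both sides of all 3 co-culture libraries (0.574, 0.578 and 0.770). Intervals cover counting error only. They may be too narrow even for that, because tags amplified by PCR are not independent molecules.

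**Figure D3:**
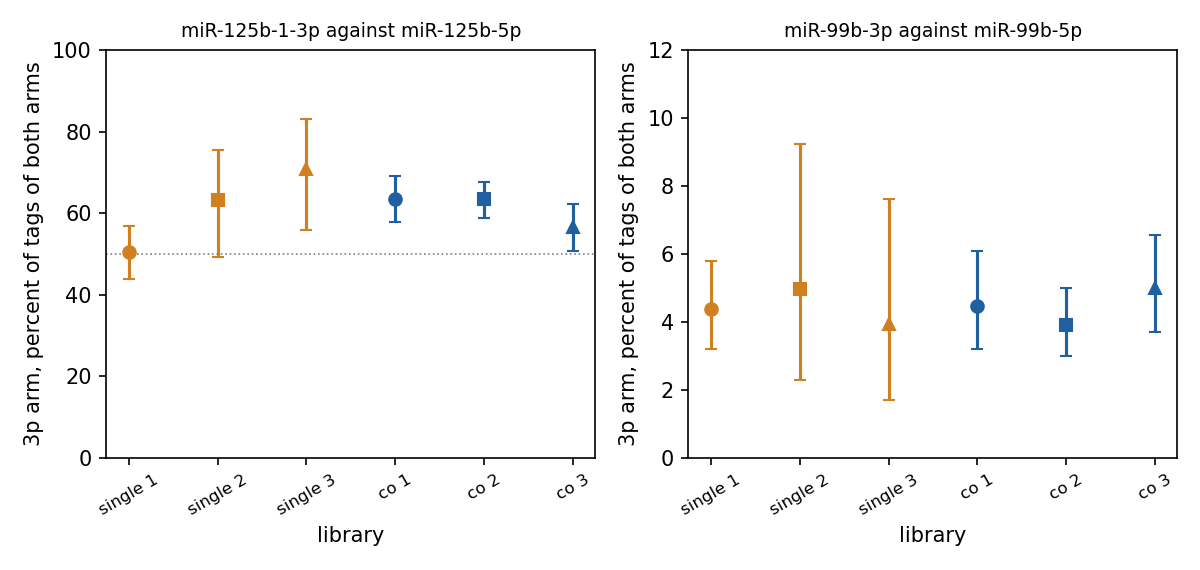
Share of the 3p arm among tags of both arms of the miR-125b and miR-99b hairpins in each library, in percent, with 95% Clopper-Pearson intervals. miR-125b-1-3p takes 50.4% to 70.8% and miR-99b-3p 3.92% to 4.99%, and the 2 groups overlap in both plots.

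For MIR125A the ratio of arms did not overlap between groups, at 9.40, 11 and 11 in single culture against 5, 7 and 5.57 in co-culture (log2 difference -0.85, exact permutation p = 0.1, adjusted 0.16). It rests on 0 to 3 tags of miR-125a-3p a library, and its direction turned to 0.21 when a blank was read as 1 tag.

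Ratios that have miR-125a-5p below the line were higher in every co-culture library. miR-125b-5p was 5.09, 3.91 and 2.64 times its seed partner miR-125a-5p in single culture against 8.84, 10.1 and 6.54 times in co-culture, a log2 difference of 1.16 (exact permutation p = 0.1, adjusted 0.16). Within the chromosome 19 locus, miR-99b-5p was 41.9, 31.4 and 35.5 times miR-125a-5p in single culture against 66.5, 85.6 and 47.8 times in co-culture (log2 difference 0.85, exact permutation p = 0.1, adjusted 0.16). let-7e-5p, from the hairpin between them, was 4.62, 2.45 and 2.64 times miR-125a-5p in single culture against 7.16, 7.34 and 4.95 times in co-culture (log2 difference 1.04, exact permutation p = 0.1, adjusted 0.16). These 3 ratios share the miR-125a-5p counts and are not separate evidence. Of the 5p tags of that locus, miR-125a-5p made up 2.06%, 2.63% and 2.34% in single culture against 1.29%, 1.04% and 1.81% in co-culture. The Clopper-Pearson intervals in the shallow single culture libraries 2 (0.860% to 6.03%) and 3 (0.763% to 5.37%) covered all 3 co-culture values. That of the deeper library 1 (1.31% to 3.08%) lay above the values of co-culture libraries 1 and 2, and the interval of co-culture library 2 (0.604% to 1.65%) lay below all 3 single culture values.

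The seed partners miR-100-5p and miR-99b-5p stood in ratios of 23.6, 22.5 and 19.6 in single culture against 27.5, 24.8 and 25.1 in co-culture. The groups did not overlap, with a log2 difference of 0.24 (exact permutation p = 0.1, adjusted 0.16). Leaving out each library in turn gave 0.16 to 0.30. Both miRNAs have 172 tags or more in every library. The cluster mates miR-100-5p and miR-125b-5p of chromosome 11 stood in ratios of 195, 181 and 264 in single culture against 207, 210 and 184 in co-culture, which overlapped (log2 difference -0.07, exact permutation p = 0.9).

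**Figure D4:**
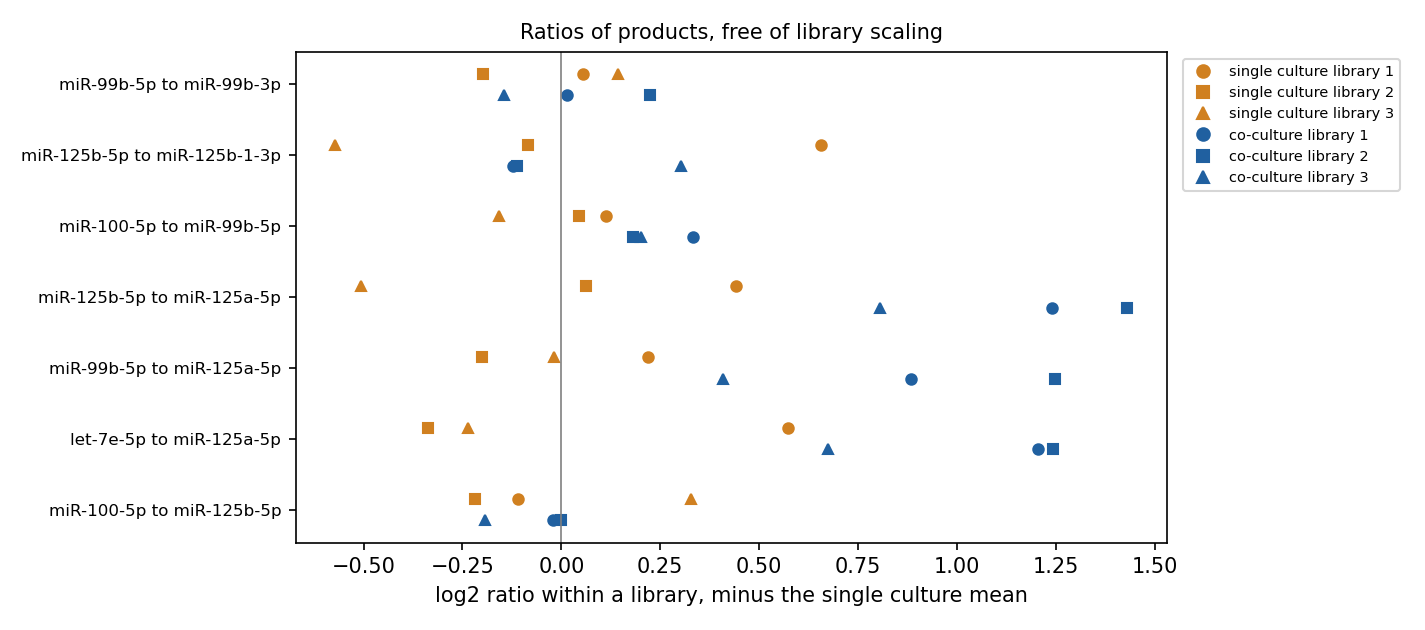
Within-library log2 ratios of 7 pairs of products, each minus its single culture mean, with single culture libraries in orange and co-culture libraries in blue. The 3 pairs with miR-125a-5p below the line and the pair of miR-100-5p and miR-99b-5p have all co-culture points to the right of all single culture points, and the other 3 pairs overlap.

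The share of a seed family in a library depended on what it was divided by. Tags with the miR-99/100 seed made up 11.6%, 9.23% and 8.46% of all tags in single culture against 7.30%, 6.38% and 5.78% in co-culture, so that co-culture was lower in every library (9.77% ± 1.64 against 6.48% ± 0.766, SD, n = 3 each). Of the tags outside the MIR21 sequences, the same tags made up 26.6%, 15.3% and 13.5% in single culture against 29.3%, 33.9% and 30.7% in co-culture, and co-culture was higher in every library (18.5% ± 7.13 against 31.3% ± 2.37, SD, n = 3 each). Sequences of 17 to 20 nt took 17.3%, 38.8% and 40.8% of the tags outside MIR21 in single culture against 15.2%, 12.1% and 11.3% in co-culture. Their part in these shares was not tested. The miR-125 seed stood at 0.0679%, 0.0592% and 0.0400% of all tags in single culture against 0.0375%, 0.0319% and 0.0346% in co-culture. Without the MIR21 tags it was 0.156%, 0.0983% and 0.0635% against 0.151%, 0.170% and 0.184%, where single culture library 1 overlapped the co-culture range. Of all tags, the MIR21 sequences thus took more and both seed families took less in every co-culture library. The part of the MIR21 tags in the result was not tested.

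**Figure D5:**
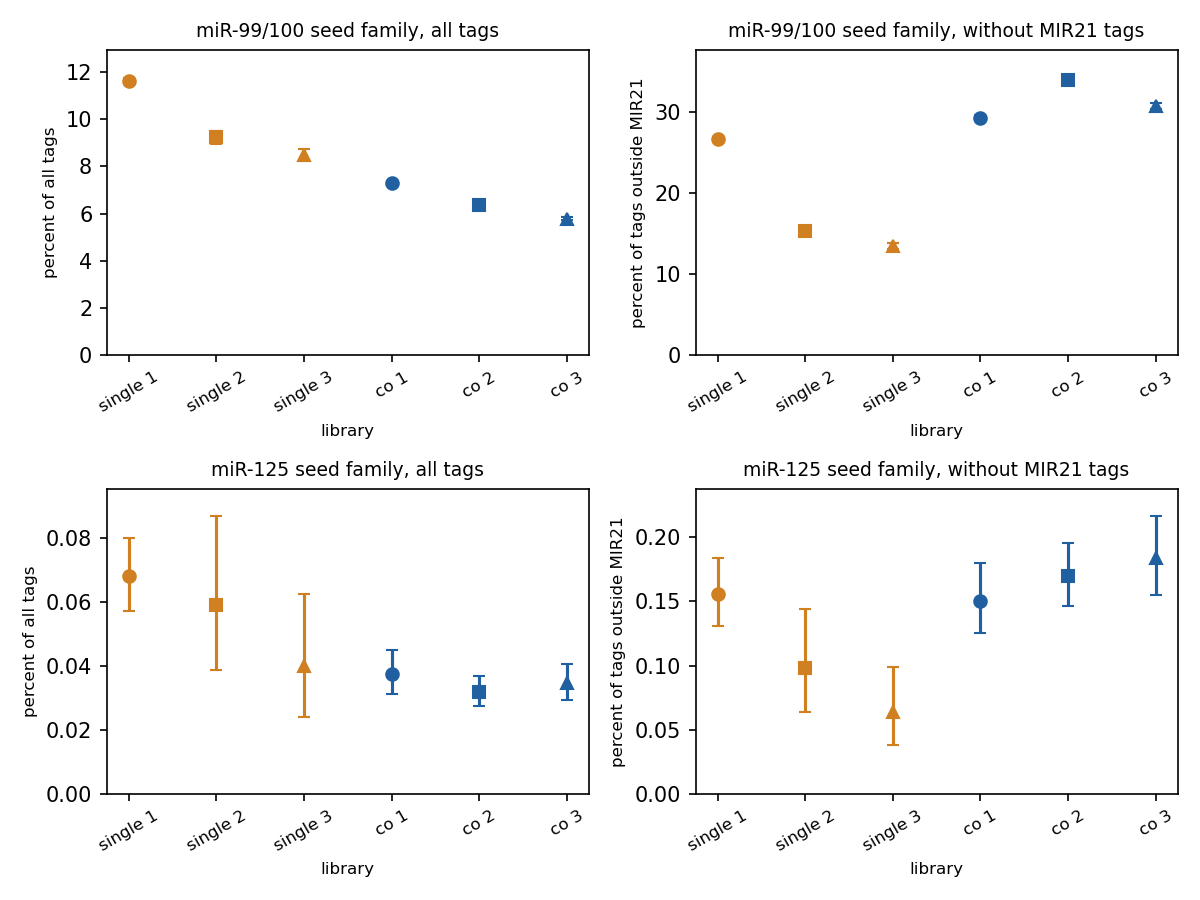
Share of tags with the miR-99/100 seed (top) and the miR-125 seed (bottom) in each library, in percent of all tags (left) and of tags outside the MIR21 sequences (right), with 95% Clopper-Pearson intervals that cover counting error only. The miR-99/100 share of co-culture is lower than single culture on the left (5.78% to 7.30% against 8.46% to 11.6%) and higher on the right.

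The let-7 partners of the 3 loci did not pass the adjusted threshold in the main fit, with TMM scaling. By library size alone their 5p arms were lower in co-culture and passed it, in a fit that called 140 of 182 sequences. There the log2 fold change was -0.80 for let-7a-5p (edgeR adjusted p = 0.00843), -0.75 for let-7e-5p (edgeR adjusted p = 0.0263) and -2.35 for let-7c-5p (edgeR adjusted p = 0.00755). let-7a-5p, which 3 genes encode including MIRLET7A2 of chromosome 11, stood at 2037, 1397 and 1664 CPM in single culture against 2055, 2072 and 2034 CPM in co-culture (log2 fold change 0.26, edgeR adjusted p = 0.323). let-7e-5p of chromosome 19 stood at 356, 202 and 208 CPM against 346, 342 and 341 CPM (log2 fold change 0.31, edgeR adjusted p = 0.422). In both, single culture library 1 was level with co-culture and libraries 2 and 3 were lower. Without single culture library 1 both passed, let-7a-5p at a log2 fold change of 0.40 (edgeR adjusted p = 0.0235) and let-7e-5p at 0.72 (edgeR adjusted p = 0.0312). Without single culture library 2, let-7a-5p was at 0.15 and let-7e-5p at 0.19, and without library 3 let-7e-5p was at 0.19.

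let-7c-5p of the chromosome 21 locus went the other way within single culture. It stood at 370, 1615 and 2094 CPM in single culture against 528, 505 and 590 CPM in co-culture, so single culture library 1 was below co-culture and libraries 2 and 3 were above it (log2 fold change -1.28, SE 0.57, edgeR adjusted p = 0.212). Relative to let-7a-5p, its 1-base neighbour, let-7c-5p had 0.182, 1.16 and 1.26 tags for each tag in single culture against 0.257, 0.244 and 0.290 in co-culture. Without single culture library 1 its log2 fold change was -1.80 (edgeR adjusted p = 2.50e-05), in the fit that called 43 of 172 sequences. Without library 3 it was -0.79 (edgeR adjusted p = 0.497), and with library 1 alone in single culture it was 0.54, a value with no replicate in that group. Over all alternatives the adjusted p ran from 2.07e-06 to 0.497. Sequences of 17 to 20 nt took 7.56%, 23.4% and 25.7% of tags in the single culture libraries and 2.12% to 3.79% in co-culture, and libraries 2 and 3 were also the shallowest. The part of these in the let-7c-5p values was not tested. The 3p arms let-7a-2-3p and let-7e-3p had at most 8 and 4 tags a library.

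The miR-10 family carries a relative of the miR-99/100 sequence, with a longest shared run of 11 bases between miR-10a-5p and miR-100-5p but another seed. miR-10a-5p, which lies in the HOXB cluster, had 532, 86 and 95 tags in single culture against 613, 874 and 612 in co-culture. These were 1756, 1335 and 1411 CPM against 2381, 2334 and 2176 CPM (log2 fold change 0.61, SE 0.14, edgeR adjusted p = 0.0607). DESeq2 gave it an adjusted p of 0.0347, and over all alternatives the adjusted p ran from 0.00121 to 0.825. By library size alone its log2 fold change was -0.45. miR-10b-5p had 7 tags, a blank and 2 tags against 12, 18 and 12. With the blank as 0 these were 23.1, 0 and 29.7 CPM against 46.6, 48.1 and 42.7 CPM (log2 fold change 1.15, edgeR adjusted p = 0.188). As a description over the 6 libraries, sequences outside the member list were ranked by the likeness of their log2 CPM. The tested sequences most like miR-100-5p were miR-30e-3p (Pearson r = 0.98), miR-10a-5p (r = 0.96) and let-7i-5p (r = 0.96). Those most like miR-125b-5p were miR-192-5p (r = 0.98) and 2 author-named sequences of chromosome X (r = 0.98 and 0.97). The author-named sequence with r = 0.98 averaged 23.6 CPM in single culture. That is below the 31.0 and 29.7 CPM of 2 tags in single culture libraries 2 and 3, so its r rests on values at the floor. All values in a library share its depth and its scaling factor.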

How the data were processed

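Small RNA of 6 LX-2 libraries was sequenced on an Illumina platform. The authors deposited raw tag counts per mature miRNA, and a normalized tag signal that the authors scaled per library to an unstated total. Bowtie 0.12.2 and the builds hg18 and mm8 stand in the submitters' processing notes, with no role. Trimming, mismatches and strand handling are not given. Columns of the authors' own fold changes and p-values were not used.

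The table columns are numbered. Their groups came from the group names on the authors' mean columns: in 519 of 519 rows compared, a mean column equalled, within 1e-05, 1 plus the average normalized signal of the columns assigned to it, against 14 rows for the columns of the other group. There were 0 columns without a group. Rows with the same mature sequence were merged (520 rows, 482 names, 463 sequences), and blanks, under 2 tags, were read as 0. Between libraries of a group the chi-square per degree of freedom of the counts was 3.46 or more, so none was the same library counted again. It was 3.46 for single culture libraries 2 and 3 and 4.17 for co-culture libraries 2 and 3. The other pairs had 24.6 to 144. This measure cannot tell separate cultures from libraries made of 1 culture.

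Raw counts were fitted in edgeR 4.0.16 (R 4.3.3) with TMM scaling, keeping sequences of at least 10 tags in 3 libraries, by the quasi-likelihood test and Benjamini-Hochberg adjustment over 182 sequences. CPM used the TMM-scaled sizes. Ratios used scipy 1.17.1. Both tests were tried on simulated data. Alternatives were RLE scaling, library size alone, TMM without the MIR21 sequences, DESeq2 1.42.0, no minimum, a minimum of 50, known miRNAs only, a block by column number, leaving out each library, limma 3.58.1 on the authors' normalized values (pseudocounts 1 and 10), blanks as 1 tag and, added after seeing the data, leaving out single culture libraries 2 and 3. Named are all members, their let-7 partners, the miR-10 relatives, and the 3 tested sequences most like the leading member of each seed family. Members and lists were chosen with earlier results of these data known. Sequences are from RefSeq (GRCh38.p14) and host genes from GENCODE on GRCh38. Depth was 43956 to 604418 tags a library.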

Additional observations from a re-analysis of the deposited data

How the results depend on the processing

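By library size alone, 5 members were lower at the adjusted threshold in place of 0, and log2 fold changes turned to -0.82 for miR-99b-5p, -0.85 for miR-99b-3p, -0.59 for miR-100-5p, -0.60 for miR-125b-5p, -0.48 for miR-125b-1-3p, -0.80 for let-7a-5p, -0.75 for let-7e-5p and -0.45 for miR-10a-5p. On the authors' normalized values with limma, miR-99b-5p (-0.12 with either pseudocount), miR-99b-3p (-0.089 and -0.086) and let-7a-5p (-0.082 with either) also turned. With no minimum count 1 member was higher (37 of 463 sequences called, 12 higher). With single culture libraries 2 and 3 left out, an alternative chosen after seeing the data, let-7c-5p turned to 0.54 and let-7e-5p to -0.058. That fit assumes that the lone single culture library varies like co-culture, so only its log2 fold changes are given. Leaving out each library gave 0 to 2 members higher, the 2 without single culture library 1 (43 of 172 sequences called, 15 higher), and 0 lower. It moved the ratio of miR-99b-5p to miR-99b-3p from -0.068 to 0.12, that of miR-125b-5p to miR-125b-1-3p from -0.26 to 0.35 and that of miR-100-5p to miR-125b-5p from -0.18 to 0.092. Reading blanks as 1 tag turned the arm ratio of miR-125a to 0.21. Shares outside MIR21 tags were 18.5% and 31.3% for the miR-99/100 seed and 0.106% and 0.168% for the miR-125 seed, in single culture and co-culture. The cause was not tested.

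Of the alternative fits of single members, 86 kept direction and side of the threshold, 5 passed it in the same direction and the 9 given above turned. The 5 include miR-125b-1-3p in the fit with 1 single culture library, which supports no call. Correlations of same-numbered deviations (-0.30, -0.09 and -0.17) gave no sign of pairing by column number. They cannot show that the cultures were unpaired, since the columns were not assigned to single samples. With a replicate block by column number 0 members were higher and 0 lower, the 8 calls over all sequences became 0, and miR-100-5p had a log2 fold change of 0.49. Summing members with author-named forms of other length was not run, as no such form was listed. The calls over all sequences ranged from 0 to 140 across settings. Depth limits miR-125a-5p, miR-125a-3p and miR-99b-3p in single culture libraries 2 and 3, which hold 5, 0 and 8 or 9 tags of them.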
